A study of Mus musculus with 15 samples.

Results

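The replication-dependent histone genes described here are the genes named Hist1h to Hist4h, most of which encode the linker histone H1 or the core histones H2A, H2B, H3 and H4. Hist1h2aj, Hist1h2al and Hist3h2bb-ps among them are annotated as pseudogenes. They were taken as every gene whose row name begins that way in any of the 4 deposited tables, 67 genes of 20723 distinct names. By type they were 5 H1, 19 H2A, 18 H2B, 12 H3 and 13 H4 genes. By the cluster number in the name they were 53 genes of cluster 1 on chromosome 13, 10 of cluster 2 on chromosome 3, 3 of cluster 3 on chromosome 11 and 1 of cluster 4 on chromosome 6. Hist1h2al, counted in cluster 1 by its name, lies apart from the others at chr13:51202727-51203065. Only the table that pairs treated with untreated 36N cells lists all 67 under these names. The other tables carry 9 under these names and most of the rest under newer symbols (H1f4 for Hist1h1e, H3c15 for Hist2h3c2), which were traced by RefSeq synonyms. In this way 67, 67 and 65 genes were found in the untreated 36N, untreated KD and temozolomide tables.

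RNA was sequenced from total bone marrow of mice with MLL-AF9 leukemia, in 15 libraries in 5 groups of 3. The groups were 36N TMZ (GFI1 36N/36N, temozolomide), 36S TMZ (GFI1 KI/KI, temozolomide), KD (GFI1 KD/KD, untreated), 36N (GFI1 36N/36N, untreated) and 36S (GFI1 KI/KI, untreated). All animals were C57BL/6 and carried human GFI1 in place of the mouse gene: the 36S form in KI, the 36N variant in 36N, and human GFI1 at 10 to 20% of its expression in KD. Total marrow can also hold cells of the irradiated recipients, which were given 7 and 3 Gy at first and 3 Gy at later transplants. Every group carried the retroviral MLL-AF9 fusion with a GFP reporter, the marrow was from the quaternary transplant, and temozolomide, a DNA-alkylating drug, was given to the cells at 50 µg/ml 20 h before RNA isolation. The sample titles carry MLL_AF9_1, MLL_AF9_2 and MLL_AF9_3 in 36S, but MLL_AF9_1 in every 36N and KD library. The labels do not say whether the libraries of a group came from separate primary leukemias, so p-values measure the spread between these libraries. Gfi1 had 723, 504 and 555 normalized counts in 36N TMZ and 505, 565 and 367 in 36N, and no value of it was used here for KD or 36S, so the KD label is unverified. Values are the authors' normalized counts, with column totals of 11.27 to 24.26 in units of 1e6. Whole reads underlying them could not be counted, so no counting interval is given.

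Replication-dependent histone genes are switched on as cells enter S phase, when new DNA has to be packed into nucleosomes. Their messenger RNAs are the exception among protein-coding transcripts in that they end in a short stem-loop bound by the stem-loop binding protein SLBP instead of a poly(A) tail, and they are degraded when DNA synthesis stops. Some of these genes can also give polyadenylated transcripts from a downstream site, mainly in cells that have stopped dividing. The labels give poly(A) selection for all libraries, so a normalized count here is what that selection retained of a mostly tail-less class of RNA.

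The stem-loop is shown for the members on which the results turn, with the stem-loop in capitals and the flanking bases in lower case, 5′ to 3′ on the strand of the gene, as DNA letters from the GENCODE M21 transcripts (mm10). Hist2h3c2 and Hist2h3c1 (both H3, cluster 2) carried the same stretch, at chr3:96238479-96238506 on the minus strand and chr3:96247321-96247348 on the plus strand. Hist2h4 (chr3:96262933-96262960, minus) and Hist1h4i (chr13:22040960-22040987, minus), both H4, shared a stem-loop that only these 2 members had. Hist1h1e (chr13:23621776-23621803, minus) and Hist1h1c (chr13:23739506-23739533, plus) are H1 genes, and Hist1h2ao (chr13:21810892-21810919, plus) and Hist1h2ap (chr13:21833026-21833050, minus) are near-identical H2A genes.
Hist2h3c2: cacaaaGGCTCTTTTCAGAGCCaccaca
Hist2h3c1: cacaaaGGCTCTTTTCAGAGCCaccaca
Hist2h4: cctaacGGCCCTTTTTAGGGCCaaccac
Hist1h4i: cttaaaGGCCCTTTTTAGGGCCaccaca
Hist1h1e: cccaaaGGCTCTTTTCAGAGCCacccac
Hist1h1c: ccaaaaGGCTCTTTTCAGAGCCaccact
Hist1h2ao: aaaaaaGGCTCTTTTCAGAGCCatccac
Hist1h2ap: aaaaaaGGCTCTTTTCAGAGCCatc

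The 16-base stem-loop motif, made of GGNNCT, the loop TTTN and AGNNCC and searched on the sense strand, was found in the annotated transcripts of 43 of the 67 members. The commonest form was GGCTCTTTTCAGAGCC, in 26 members. In 22 members the annotated transcript ended within 100 bases after the stem-loop, and in 21 it ran on for at least 100 bases. The remaining 24 had no match in their annotated transcripts, which says only that those letters are not in the annotation. Many members also share coding sequence: in 45 of 67, at least 40% of the 31-base stretches of the annotated transcripts occur in another member. How the authors' counting divided reads among such copies is uncertain. The values of single members of this kind are uncertain for that reason, and sums over types do not depend on a division within a type. Of the members named below this applies to Hist2h3c2, Hist1h3e and Hist1h3f among H3 genes and to Hist1h4a, Hist1h4h, Hist1h4k, Hist1h4m and Hist1h4n among H4 genes. It also applies to every H2B gene named except Hist2h2be and Hist3h2ba, and to every H2A gene named except Hist2h2ab.

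The temozolomide libraries stood apart from the untreated ones in far more than histones. In 36N cells all 8 mast cell and basophil markers were higher with temozolomide, with summed normalized counts of 78918 to 211320 in 36N TMZ against 284 to 1186 in 36N. Of these, Fcer1a, Mcpt4 and Tpsb2 were at 0 in every untreated 36N library. Those 3 were tested only because they were high in 36N TMZ, and had to come out higher. All 6 megakaryocyte markers were also higher, with sums of 28963 to 56753 against 34.6 to 69.8. Markers this low in untreated 36N could be tested through 36N TMZ alone, so the marker counts are descriptions. All 6 B cell and plasma cell markers that were tested were lower (216 to 505 against 8779 to 15082), as were all 4 leukemia program genes (1784 to 1963 against 9468 to 12473). Monocyte markers gave 1 higher and 5 lower of 8, neutrophil markers 0 higher and 3 lower of 9, and erythroid markers 3 higher and 0 lower of 8. T and NK cell markers gave 2 higher and 5 lower of 8. The sum over the T and NK list was nevertheless higher, 6365 to 9035 in 36N TMZ against 209 to 330 in 36N. Only 2 of the 8 tested genes had a positive log2 change, the larger 8.81. Cd3e, Gzma and Trbc2 were at 0 in every 36N TMZ library, so the sum does not describe the list as a whole. These counts are to be read beside all genes tested, of which 36.3% were higher and 33.5% lower. The mitochondrial share of counts was 7.99 to 8.55% in 36N TMZ and 7.82 to 8.08% in 36N. The part of these differences in the histone results was not tested. Whether treated and untreated libraries were prepared together is not given in the sources used here, so treatment and library preparation cannot be told apart. In bulk RNA, fewer cells of a type and less RNA per cell cannot be told apart either.

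Histone transcripts were far lower in temozolomide-treated than in untreated 36N cells. The members summed to 7610, 6366 and 4544 normalized counts in 36N TMZ libraries 4 to 6, against 239456, 218550.0 and 199092 in 36N libraries 4 to 6. The groups did not overlap, and the mean sum was 35.5-fold lower in 36N TMZ. The histone share of all normalized counts was 0.0248 to 0.0455% in 36N TMZ and 1.27 to 1.51% in 36N. Without the near-identical pair Hist1h2ao and Hist1h2ap the sum was 146-fold lower. By type, the mean sum was 454-fold lower for H3 and 220.4-fold lower for H4, against 86.2-fold for H2B, 79.0-fold for H1 and 12.4-fold for H2A, whose sum in 36N TMZ was mostly Hist1h2ao.

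**Figure D1:**
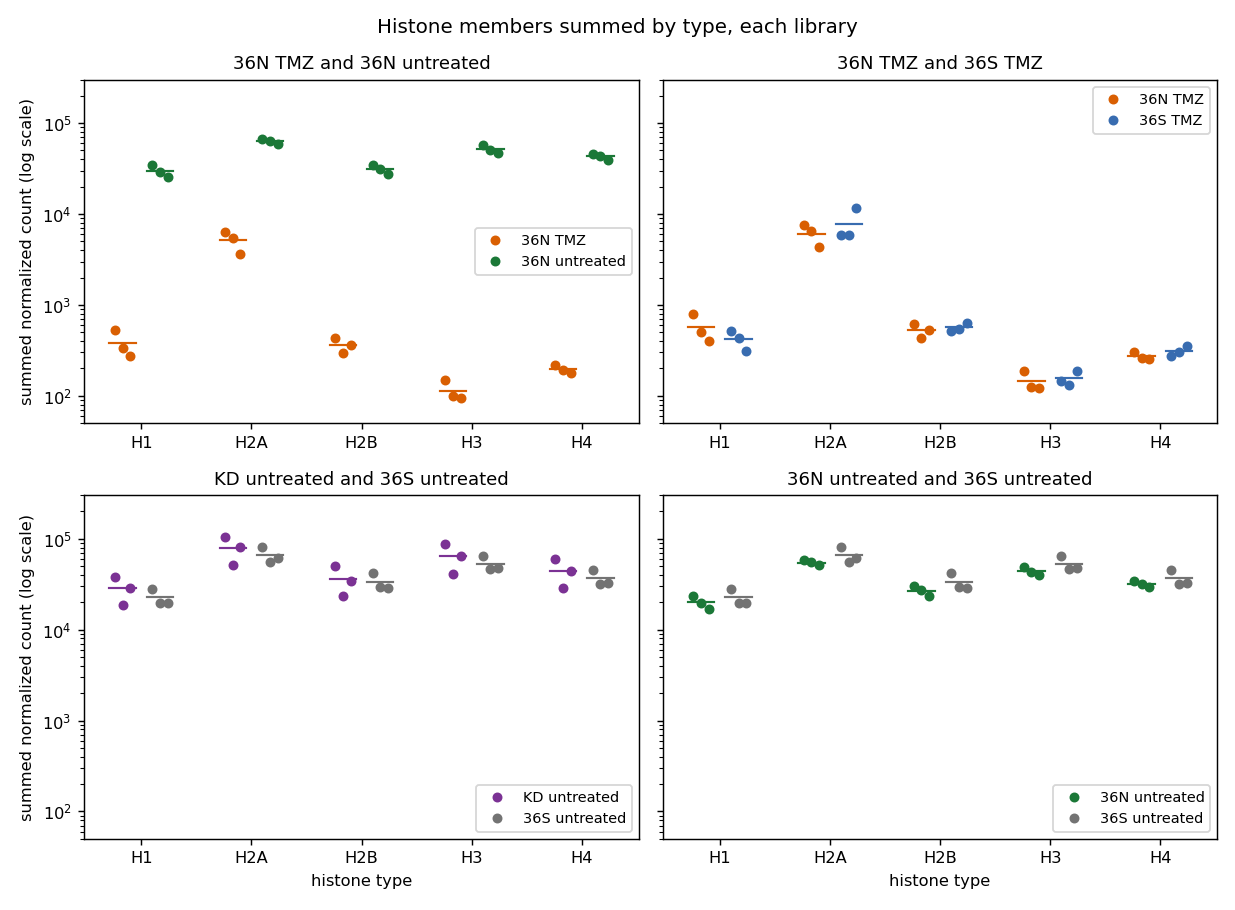
Summed normalized counts of the histone members by type in each library (log axis), in the 4 tables; points are libraries and lines are group means of 3 libraries. In 36N TMZ every H3 sum lies between 94.4 and 149, against 47239 to 56815 in untreated 36N, while the panels of genotypes at the same treatment show neighbouring points.

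Of the 67 members, 66 reached 10 normalized counts in 3 or more libraries and were tested, and all 66 passed an adjusted p of 0.05 (limma-trend across all 14390 genes of the table, Benjamini-Hochberg). In 24 of them no 36N TMZ library reached 10, so they were tested only because they were high in untreated 36N and had to differ, Hist2h3c2, Hist1h2bn, Hist2h4 and Hist1h4h among them. Hist1h2aj was tested only through 36N TMZ. The counts, medians and p-values over these members are therefore descriptions. In 18 members every 36N TMZ library reached 10, and of these 16 were lower and 2 higher, with a median log2 change of -5.49. All other tested members needed untreated 36N libraries to meet the filter, Hist1h1e, Hist1h1d, Hist1h4d and Hist1h2ak among them. Their p-values are likewise descriptions. Across all genes tested 69.7% passed, so a call in either direction was common in this comparison. By direction, 64 members were lower, against 33.5% of all genes, and 2 were higher, against 36.3%. The median log2 change of the members was -7.77, or -7.67 without the 3 members listed at 0 in every 36N TMZ library, and the median of all genes was 0.06. No tested member overlapped between the groups: 64 had every 36N TMZ library below every 36N library (35.8% of all genes) and 2 had every one above (38.7%). Without untreated 36N library 4, 5 or 6, 42 members met the filter and 42, 41 and 42 passed. The member left out by the filter was Hist1h2al, a processed pseudogene, with 1.11, 1.07 and 2.22 normalized counts in 36N TMZ and 0.933, 2.55 and 3.83 in 36N.

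Among the H3 genes the largest change was that of Hist2h3c2, a cluster 2 gene with the highest mean normalized count of its type (not corrected for length). It had 2.56, 6.63 and 4.41 normalized counts in 36N TMZ, against 17584, 14574 and 13814 in 36N. All 12 H3 members fell, with a median log2 change of -9.33, and Hist1h3f of cluster 1 had 4.90, 3.17 and 0 in 36N TMZ against 4188, 4028 and 2997 in 36N. The log2 change was -11.50 ± 0.29 (SE, n = 3 and 3, limma adjusted p = 3.17e-07) for Hist2h3c2 and -10.31 ± 0.62 for Hist1h3f. Hist2h3c1, the H3 gene whose printed stem-loop stretch is the same as that of Hist2h3c2, fell far less. It had 12.1, 15.6 and 31.1 in 36N TMZ, against 326, 287 and 282 in 36N, a log2 change of -3.96 ± 0.37 (limma adjusted p = 5.50e-05).

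All 13 H4 members fell, with a median log2 change of -8.57. Hist1h4h was listed at 0 in all 36N TMZ libraries, against 6502, 6961 and 5736 in 36N. Hist2h4 had 1.54, 1.52 and 3.16 in 36N TMZ, against 5571, 4846 and 5423 in 36N, and shares 2.31% of its 31-base stretches with other members. Hist1h4a (1.04, 0 and 1.07 against 2904, 2343 and 1991), Hist1h4c (3.00, 1.47 and 1.55 against 4120.0, 3741 and 3979) and Hist1h4d (12.8, 11.9 and 7.50 against 13574, 13415 and 11502) were low in the same way. The log2 changes of Hist2h4, Hist1h4a, Hist1h4c and Hist1h4d were between -10.79 and -10.12. The exception was Hist1h4i, with 94.2, 87.9 and 79.8 in 36N TMZ against 152, 184 and 204 in 36N. Its log2 change was -1.03 ± 0.22 (limma adjusted p = 0.00417), and its 16-base stem-loop is the one Hist2h4 carries. Whether the stem-loop letters bear on the size of a change was not tested for any member.

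Among the linker histones, which bind the DNA between nucleosomes, all 5 fell. Hist1h1e had 11.5, 5.96 and 7.80 normalized counts in 36N TMZ, against 16776, 13223 and 11478 in 36N, a log2 change of -10.54 ± 0.25 (limma adjusted p = 2.72e-07). Hist1h1d had 12.0, 13.2 and 2.54 against 7119, 6301 and 5899. Hist1h1c, which encodes H1.2, kept the highest normalized count of the 5 in treated cells (not corrected for length): 478, 301 and 257 in 36N TMZ, against 4972, 4667 and 3823 in 36N. Its log2 change was -3.74 ± 0.23, and the annotated transcripts of both Hist1h1c and Hist1h1e run on past the stem-loop, by 840 and 1153 bases.

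All 18 H2B members fell, with a median log2 change of -7.10. Hist1h2bq had the highest mean of the H2B genes, with 61.7, 47.1 and 33.6 in 36N TMZ against 9784, 8391 and 7029.9 in 36N. Hist1h2bn had 2.40, 4.68 and 0 in 36N TMZ, against 3681, 3062 and 2774 in 36N, and its log2 change was -10.20 ± 0.59 (limma adjusted p = 6.54e-06). The smallest change among H2B genes was that of Hist2h2be, which encodes an H2B variant known in mice from olfactory neurons. It had 93.4, 84.0 and 111 in 36N TMZ, against 160.3, 195 and 201 in 36N, a log2 change of -0.94 ± 0.22 (limma adjusted p = 0.00659). Hist2h2be shares 1.93% of its 31-base stretches with other members. Hist3h2ba, on chromosome 11, was low throughout, with 8.93, 6.72 and 4.08 in 36N TMZ and 30.4, 19.5 and 21.2 in 36N (log2 change -1.73 ± 0.40).

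Hist1h2bn lies head to head with the H2A gene Hist1h2ak, and the 163 bases between their RefSeq start sites are shown because both members fell here and because they are among the 4 with the lowest p between untreated 36N and 36S, described below. Hist1h2ak had 16.3, 10.5 and 4.43 normalized counts in 36N TMZ, against 7563, 6944 and 7095 in 36N, a log2 change of -9.45 ± 0.39 (limma adjusted p = 1.83e-06). The stretch is chr13:21753913-21754075 (GRCm38.p6, plus strand), with matches to CCAAT on either strand in capitals, at bases 12 (minus), 41 (plus) and 77 (minus).
Hist1h2bn and Hist1h2ak: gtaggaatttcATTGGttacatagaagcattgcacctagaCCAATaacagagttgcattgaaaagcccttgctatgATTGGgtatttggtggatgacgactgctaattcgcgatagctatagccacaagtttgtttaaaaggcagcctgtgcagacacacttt
It held no match to TATAAA or ATTTGCAT on either strand. Among the 58 members with a RefSeq promoter (250 bases before to 50 after the start), CCAAT was present in 84.5%, against 37.4% of all 32851 promoters. TATAAA was present in 56.9% against 13.6%, and ATTTGCAT, the octamer, in 19.0% against 1.74%. The octamer was found in 37.5% of H2A and 33.3% of H2B promoters and in none of the 27 H1, H3 and H4 promoters, and CCAAT in every H1, H2A, H2B and H3 promoter but in 25.0% of H4 promoters. The promoters of head-to-head genes such as Hist1h2bn and Hist1h2ak overlap, and both strands were searched. One and the same match can therefore be counted for both genes of such a pair. These are matches of letters, not shown sites.

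The H2A genes were the only type with members that rose. Of 18 tested, 16 fell and 2 rose. Hist2h2aa1 was listed at 0 in all 36N TMZ libraries, against 8844, 6743 and 7385 in 36N, but its copy Hist2h2aa2, whose transcript has all of its 31-base stretches in other members, had 43.5, 45.5 and 111 in 36N TMZ against 5091, 5789.9 and 5177 in 36N. The sum of this pair was 43.5, 45.5 and 111 in 36N TMZ and 13934, 12533 and 12562 in 36N. Hist2h2ab, also of cluster 2, was listed at 0 in 36N TMZ, against 86.4, 129.8 and 135 in 36N.

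The 2 members that rose are both near-copies of other H2A genes. Hist1h2ao had 5801, 4921 and 3218 in 36N TMZ, against 160.1, 636 and 2641 in 36N (log2 change 2.80 ± 0.87, limma adjusted p = 0.0216). Its near-copy Hist1h2ap had 178, 243 and 86.1 in 36N TMZ, against 21691, 20656 and 15804 in 36N (log2 change -6.94 ± 0.35). Of Hist1h2ao, 93.8% of the 31-base stretches occur in another member, and the stem-loop stretches printed above are the same up to where the annotated Hist1h2ap transcript ends. The pair together had 5979, 5164 and 3304 in 36N TMZ and 21851, 21293 and 18445 in 36N. Hist1h2ao made up 97.0, 95.3 and 97.4% of the pair in 36N TMZ, against 0.733, 2.99 and 14.3% in 36N. The pair as a whole was lower in every 36N TMZ library than in any untreated 36N library. How the counting divided reads between the copies was not tested. Hist1h2aj, annotated as an unprocessed pseudogene that has 93.5% of its 31-base stretches in Hist1h2ai, had 89.2, 100.3 and 78.8 in 36N TMZ, against 3.52, 0.814 and 0 in 36N.

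**Figure D2:**
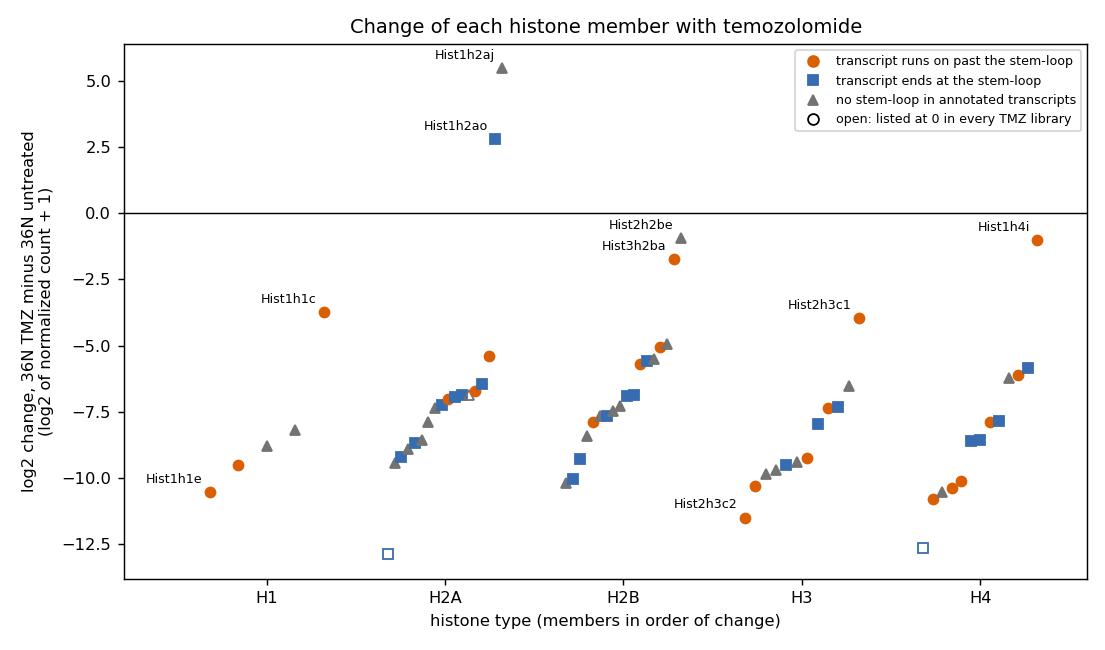
Log2 change of each of the 66 tested members between 36N TMZ and untreated 36N (positive is higher in 36N TMZ), by histone type and by how the annotated transcript ends; open marks are members listed at 0 in every 36N TMZ library, whose position depends on the pseudocount. Hist1h2aj and Hist1h2ao lie above 0, Hist1h4i, Hist2h2be and Hist3h2ba between 0 and -3, and the other 61 members below -3.

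Sizes varied widely among the members. Of the 66, 20 had a log2 change of -9 or lower, 32 lay between -9 and -6, 9 between -6 and -3, 3 between -3 and 0, and 2 above 0. Across all genes 6.82% had a log2 change below -3. In 59 members the lowest untreated 36N library was at least 10 times the highest 36N TMZ library. This was not counted over all genes. In 24 of the 66 tested members no 36N TMZ library reached 10, so the count is a description. The classes of annotated transcript end had similar medians: the median log2 change was -7.36 in the 21 members that run on past the stem-loop, -7.76 in the 22 that end there and -7.90 in the 23 tested with no annotated stem-loop. By cluster the median was -7.87 for cluster 1 and -8.82 for cluster 2, against -5.41 for the 3 genes of cluster 3 and -6.09 for Hist4h4, the gene of cluster 4. Among the 22 members with under 40% of shared stretches all fell, with a median of -6.93.

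Genes that act with the histone genes passed in either direction, as did 36.3% (higher) and 33.5% (lower) of all genes, and the medians of 7 lists lay between -0.42 and 0.62. SLBP binds the stem-loop, and Slbp had 1521, 1615 and 1702 in 36N TMZ, against 1719, 1513 and 1897 in 36N (log2 change -0.08, limma adjusted p = 0.581), so the groups overlapped. Npat, the activator of histone transcription at the start of S phase, had 466, 718 and 439 in 36N TMZ against 1499, 1389 and 1250.5 in 36N, and Casp8ap2, a component of the histone locus body, had 467, 492 and 381 against 2233, 1939.8 and 1805. Both passed, with log2 changes of -1.38 and -2.16 (limma adjusted p = 5.63e-04 and 1.36e-05). Of 21 genes of histone pre-mRNA 3′ processing and its control, 8 rose and 7 fell, shares close to those of all genes, with a median of -0.01. Lsm11, a U7 snRNP protein needed for that cleavage, was among those that rose (331, 426 and 299.6 against 202, 213 and 180.0), as were the cleavage factor genes Cpsf3 and Cpsf1, while the Sm protein gene Snrpf fell. Of 16 histone mRNA decay genes, 6 rose and 9 fell. Eri1, the exonuclease that trims the histone stem-loop, had a log2 change of -0.36 (limma adjusted p = 0.0226). Lsm10, also a U7 snRNP protein (log2 change 0.46, limma adjusted p = 0.0658), and Zfp473, a partner of the U7 snRNP (-0.42, limma adjusted p = 0.279), did not pass.

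Of 43 S phase and replication genes, 13 rose and 6 fell (median 0.16), neither a larger share than the 36.3% higher and 33.5% lower of all genes, against which the other lists below are also to be read. Mcm2, a subunit of the replicative helicase, had 4529, 8069.8 and 3126 in 36N TMZ, against 1475, 1337 and 1381 in 36N, and Pcna, the polymerase clamp, had 3102, 3744 and 3265 against 3911, 3319 and 3324. Of 16 mitosis genes 10 rose and 1, the proliferation marker Mki67, fell (13202, 12762 and 10306 against 30289, 25684 and 31089). The replication-independent and variant histones, most of which are polyadenylated, gave 4 genes higher and 4 lower of 12 tested, with a median of -0.11. H2afz, which encodes H2A.Z, had 6805, 6272 and 6343 in 36N TMZ and 6973, 5989 and 6354 in 36N. H2afx, which makes both a stem-loop and a polyadenylated transcript, fell (1144, 1047 and 898 against 3722, 3275 and 3099), and so did H1f0, the H1 gene of resting cells (1725, 1746 and 1739 against 6265, 3823 and 3904). Of 21 chaperone genes 7 rose and 6 fell: Chaf1a of the CAF-1 complex had a log2 change of 0.83 (limma adjusted p = 0.0136) and Nasp, which carries H3 and H4, of -0.69 (limma adjusted p = 0.00156). Of 14 genes of general polyadenylation 2 rose and 6 fell, with a median of -0.26.

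**Figure D3:**
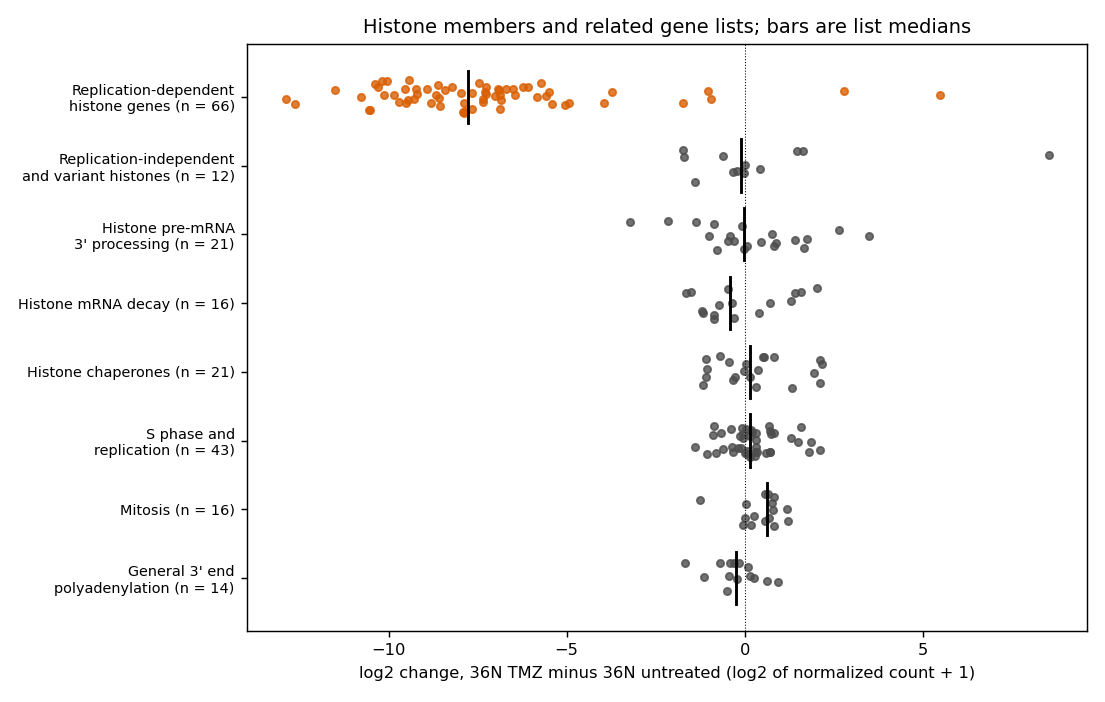
Log2 change between 36N TMZ and untreated 36N of the histone members (top row) and of 7 lists of related genes; points are genes and bars list medians. The histone median is -7.77, and the medians of the other lists lie between -0.42 and 0.62.

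Untreated KD and 36S leukemias had overlapping histone levels, with a few members past the threshold. The members summed to 340580.0, 162900.0 and 252356 normalized counts in KD libraries 7 to 9, against 262465, 183433 and 189626 in 36S libraries 1 to 3. Of 65 members tested, 6 passed (limma-trend, adjusted p under 0.05), 4 higher and 2 lower in KD, against 11.5% of all 13109 genes, of which 6.61% were higher and 4.86% lower. That is a share of members near the background, and at an unadjusted p under 0.05 there were 10 members, against 26.5% of all genes. All 3 KD libraries lay above all 36S libraries in 5 members (15.7% of all genes) and below them in 2 (15.8%). The members leaned upward in size: 56 of 65 had a positive log2 change, against 49.1% of all genes, and their median was 0.21. Brought to equal column totals, 5 members passed (3 higher, 2 lower), and the share of higher among all calls was 39.3% in place of 57.6%.

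Hist2h3c1, the H3 gene of cluster 2 with the printed stem-loop, had 769, 433 and 447 normalized counts in KD, against 149, 329 and 184 in 36S (log2 change 1.35 ± 0.31, limma adjusted p = 0.0235). Every KD library was above every 36S library. Hist2h2be had 182, 151 and 178 in KD, against 83.5, 112 and 108 in 36S (log2 change 0.75 ± 0.20, limma adjusted p = 0.0424). These are the 2 members called among the 22 with under 40% of shared stretches, and in temozolomide-treated 36N cells they had smaller decreases than most members. With equal totals Hist2h2be did not pass (limma adjusted p = 0.0747).

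The other calls were in copies or a pseudogene. Hist1h2bp, an H2B gene, had 319, 157 and 218 in KD, against 115, 118 and 93.1 in 36S (log2 change 1.03 ± 0.26, limma adjusted p = 0.0345). Hist3h2bb-ps, a processed pseudogene, had 19.3, 8.23 and 15.8 in KD, against 51.2, 53.9 and 64.1 in 36S (log2 change -1.96 ± 0.38, limma adjusted p = 0.0111). The H4 genes Hist1h4m and Hist1h4n passed in opposite directions. Hist1h4m had 836, 484 and 674 in KD, against 1502, 1186 and 1079 in 36S (log2 change -0.94 ± 0.21, limma adjusted p = 0.0197). Hist1h4n had 3716, 1688 and 2594 in KD, against 1507, 1141 and 1159 in 36S (log2 change 1.01 ± 0.25, limma adjusted p = 0.0330). These are near-copies, with 91.7% of the Hist1h4m stretches in other members, and together they gave 4551, 2171 and 3267 in KD and 3009, 2328 and 2239 in 36S, which overlap. Hist1h4m made up 18.4, 22.3 and 20.6% of the pair in KD, against 49.9, 51.0 and 48.2% in 36S.

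**Figure D4:**
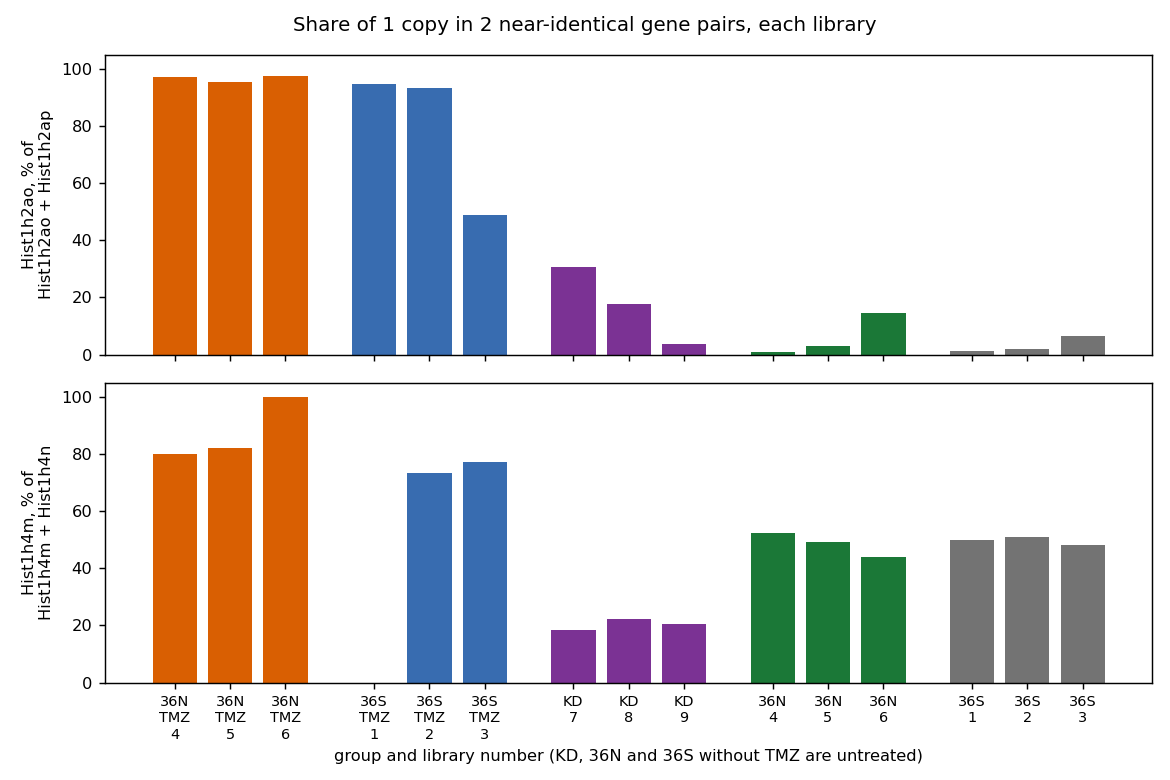
Share of Hist1h2ao in the sum of Hist1h2ao and Hist1h2ap, and of Hist1h4m in the sum of Hist1h4m and Hist1h4n, in each library. Bars are libraries. Hist1h2ao makes up 95.3 to 97.4% of its pair in 36N TMZ and 0.739 to 14.4% in untreated 36N, while one 36S TMZ library lies at 48.9%.

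The members of highest mean in each type did not pass between KD and 36S. Hist1h1e had 19123, 9472 and 14295 in KD and 14942, 10230.1 and 10247 in 36S, and Hist2h3c2 had 25546, 11095 and 18244 in KD and 18957, 13076 and 14166 in 36S. Their log2 changes, with those of Hist1h2ap, Hist1h2bq and Hist1h4d, lay between -0.03 and 0.24. Libraries ranked alike across members: KD library 7 had the highest KD value for 64 of 65 members and KD library 8 the lowest for 63, and 36S library 1 the highest 36S value for 57. Without KD library 8, 16 members passed (14 higher), and without KD library 7, 2 passed and none was higher, with a median of -0.038. Without 36S library 1, 2 or 3 or KD library 9, 2, 1, 3 and 2 members passed. The share of all genes passing in each of these fits is not given. The counts therefore show only how the calls depend on single libraries. By cluster, the mean sum in KD was 1.32 times that in 36S for cluster 2, where all 10 members were positive (median 0.44), 1.16 times for cluster 1 and 1.18 times for Hist4h4 of cluster 4. For cluster 3 it was 0.718 times, with 2 of 3 members negative (median -0.48).

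Measures that could move with the histone sums were set beside them. The S phase list summed to 48231, 36665 and 40347 in KD and 57848, 51546 and 46883 in 36S, with 1 gene higher and 6 lower of 43 (median -0.36), against 6.61% and 4.86% of all genes. The mitochondrial share of counts was 10.5, 7.19 and 10.7% in KD and 9.11, 7.95 and 6.83% in 36S. Monocyte markers were higher in 7 of 8, with sums of 97280 to 151244 in KD against 47683 to 52755 in 36S. Neutrophil markers gave 1 higher and 4 lower of 9, with sums of 35571 to 48180.0 in KD against 63523 to 193048 in 36S. T and NK cell markers gave 4 higher and 0 lower of 9 (238 to 790 against 97.8 to 202), B cell and plasma cell markers 0 higher and 2 lower of 6 (6093 to 6698 against 7606 to 11914), and mast cell and basophil markers 1 higher and 2 lower of 4 (1574 to 1859 against 1158 to 1671). Of the leukemia program genes 1 of 4 was higher, and no erythroid or megakaryocyte marker passed. The part of these differences in the histone values was not tested. Among related genes H1f0 rose (4946, 3980.3 and 4814 in KD against 2953, 2454 and 2627 in 36S, limma adjusted p = 0.00839) and Chaf1a fell (941, 875 and 873 against 1824, 1588 and 1301, limma adjusted p = 0.00869), while H2afz had 6580.2, 4110.1 and 5716 in KD and 6829, 4692 and 4545 in 36S.

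Between untreated 36N and 36S, which share the 36S libraries with the KD comparison, no member passed: 0 of 65, against 4.56% of all 13137 genes (limma-trend; 2.55% higher and 2.01% lower), and 2 members had an unadjusted p under 0.05, against 20.4% of all genes. The members summed to 194045, 177327 and 161229 in 36N libraries 4 to 6, against 262465, 183433 and 189626 in 36S. Log2 changes were negative in 55 of 65 members, against 51.7% of all genes, with a median of -0.22. The medians of the types ranged from -0.29 for H2A to -0.11 for H1, and single members from -0.51 to 0.83. All 3 36N libraries lay below all 36S libraries in 10 members, against 13.8% of all genes, and above them in 1, against 13.1%.

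The lowest adjusted p was 0.225, for the H2A gene Hist1h2ab, with 2583, 2645 and 2596 in 36N against 4382, 2943 and 2944 in 36S (log2 change -0.37 ± 0.16). Hist1h2bn had 3446, 2868 and 2584 in 36N against 5442, 3419 and 3422 in 36S, and its head-to-head partner Hist1h2ak had 7589.9, 6969.9 and 7084 against 12414, 7944 and 8271. Hist1h2bf, an H2B gene, had 1957, 1640.1 and 1636 in 36N against 3277, 2058 and 1867 in 36S. All 4 had higher values in 36S library 1 than in any other library of this table. Hist2h3c2, the H3 gene of highest mean, had 13998, 11605 and 10942 in 36N and 18957, 13076 and 14166 in 36S (log2 change -0.33, limma adjusted p = 0.297). The S phase list had 39 of 43 genes with a negative log2 change (median -0.20, 1 lower), and the mitosis list 16 of 16 (median -0.39, 0 passing). Monocyte markers gave 3 higher and 0 lower of 8, with sums of 58183 to 64784 in 36N against 47683 to 52755 in 36S. Neutrophil markers gave 1 higher and 2 lower of 9 (45799 to 52187 against 63523 to 193048), and mast cell and basophil markers 0 higher and 1 lower of 4 (228 to 920 against 1158 to 1671). Of the leukemia program genes 1 of 4 was higher, and no marker of the other cell types passed. The part of these differences in the histone values was not tested.

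**Figure D5:**
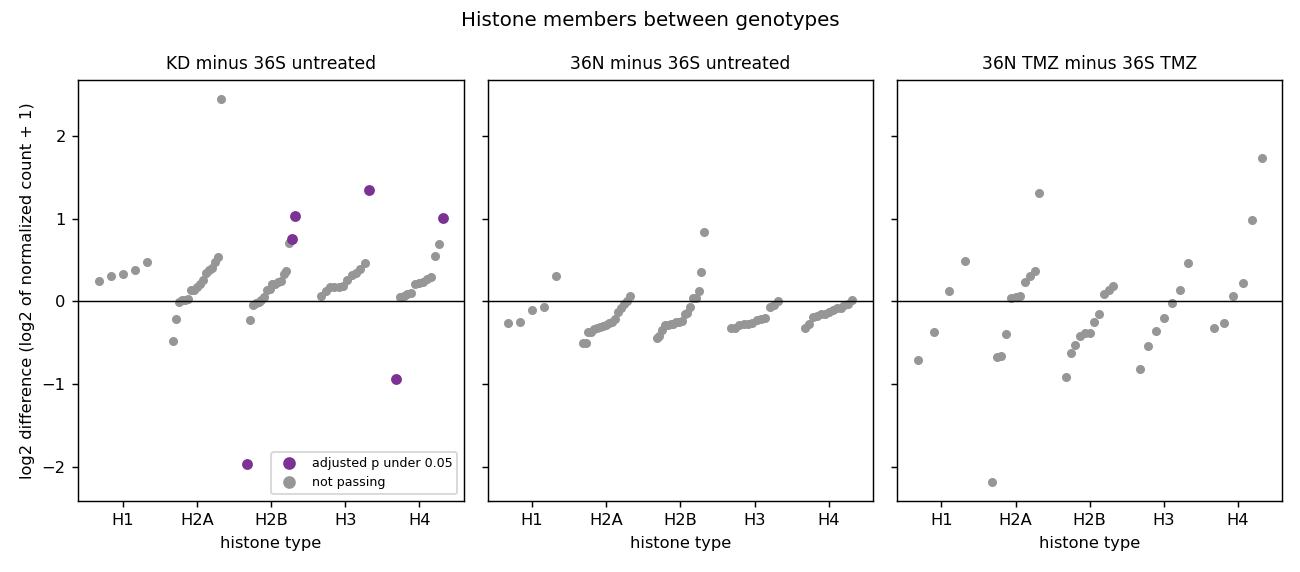
Log2 change of the tested members by type for KD against 36S and 36N against 36S in untreated cells and for 36N TMZ against 36S TMZ; purple marks passed an adjusted p of 0.05 in limma. Only the KD panel has purple marks, 4 above 0 and 2 below; the other panels have none.

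With temozolomide in both genotypes the histone genes were low in both. Of 65 members found, 39 reached 10 normalized counts in 3 libraries, and 0 passed, against 0% of all 14246 genes (limma-trend). On simulated data for this comparison the test called 24% of genes with a log2 change of 1 and 92% with 3. The absence of calls therefore does not show equal levels. At an unadjusted p under 0.05 there were 0 of the members and 191 of all genes (1.34%). The members summed to 9418, 7774 and 5599 in 36N TMZ libraries 4 to 6, against 7258, 7301 and 13212 in 36S TMZ libraries 1 to 3. As a share of all normalized counts that was 0.0231 to 0.0418% in 36N TMZ and 0.0305 to 0.0567% in 36S TMZ. Their median log2 change was -0.15, with 18 positive and 21 negative, against 47% of all genes negative. No table used here holds 36S with and without temozolomide, so the effect of the drug within 36S was not tested.

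Members with the higher normalized counts under temozolomide (not corrected for length) had them in both genotypes. Hist1h2ao had 6902, 5802 and 3751 in 36N TMZ, against 5189.8, 5269 and 4970.4 in 36S TMZ. Hist1h1c had 724, 453 and 381 in 36N TMZ, against 455, 375 and 265 in 36S TMZ, and Hist2h2be had 166, 148 and 195 against 154, 173 and 135. Hist1h3e, an H3 gene, had 11.4, 8.81 and 6.92 in 36N TMZ, against 16.6, 13.7 and 19.7 in 36S TMZ. Hist1h1e had 16.9, 8.70 and 11.3 in 36N TMZ and 15.9, 23.4 and 21.6 in 36S TMZ. The largest difference was in Hist1h2ap, with 212, 287 and 101 in 36N TMZ against 298, 376 and 5192 in 36S TMZ (log2 change -2.18 ± 1.02, not passing), and without 36S TMZ library 3 it was -0.87. That library also held most of Hist1h2aj, with 104, 116 and 89.8 in 36N TMZ and 70.1, 0 and 1019 in 36S TMZ. Among 38 members tested for a genotype difference that differs between treated and untreated cells, 0 passed and 0 had an unadjusted p under 0.05 (limma, lowest adjusted p = 0.759, Hist1h1c), against 0.333% of 12324 genes.

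The same libraries appear in more than 1 table, which gives a view of the authors' counting. For untreated 36N, 59 of 65 members differed by at most 0.5 on the log2 scale between their tables after the median shift of all genes was removed. The members nevertheless shifted together, with a median of -0.32 in the table with both treatments relative to the untreated table, and with extremes of -0.64 for Hist1h4k and 0.43 for Hist1h2br. For 36N TMZ, 38 of 42 were within 0.5, with a median of 0.31 in the table with both treatments relative to the table of both genotypes, and with extremes of -0.36 for Hist1h2br and 0.66 for Hist1h2bl. Levels set across tables carry this uncertainty.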

How the data were processed

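Poly(A)-selected RNA of 15 libraries was analysed. Each deposited value is the authors' normalized count, a signal scaled per library. Salmon, DESeq2 and mm10 are named in the submitters' processing notes, without versions. How reads shared by near-identical genes were assigned is not given in the sources used here. No column was left unmapped to a sample. Values were analysed within a table as log2(value + 1), so log2 changes understate those of low genes. Genes with at least 10 in at least 3 libraries were tested with limma-trend (limma 3.58.1, R 4.3.3) on the libraries compared, with Benjamini-Hochberg adjustment over all genes tested and a threshold of 0.05. Sums over members were not tested. The members and lists were chosen with earlier results of these data known. Named were the 10 largest changes past the threshold (or the 4 lowest p where fewer than 4 passed), the member of highest mean per type, and fixed related genes; other members were chosen after their values were seen. Stem-loops came from GENCODE M21 transcripts and promoters from RefSeq (GRCm38.p6); no strand setting of the counting was stated. Alternatives were pseudocounts of 0.5 and 5, no filter or one of 50, equal totals, quantile normalization, no or robust trend, a block by library number, and each library left out. The test was tried on simulated data.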

Additional observations from a re-analysis of the deposited data

How the results depend on the processing

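For 36N TMZ against untreated 36N, 66 of 66 members passed with the deposited scaling, also with the replicate block by the number in the library names. The main fit was unpaired by plan. The correlations of same-numbered libraries were 0.019, 0.037 and 0.086, against -0.084 to 0.061 between libraries of unlike number. These values do not settle whether same-numbered libraries are related. Leaving out 1 library gave 41 to 65 calls. The lower counts came without an untreated library, when 42 members had 3 libraries of at least 10. Among members with under 40% shared sequence 22 of 22 passed. These counts are descriptions: every 36N TMZ library reached 10 in 18 of the 66 members. The rest met the filter only with untreated 36N libraries. For KD against 36S, where 6 passed, 2 passed without the trend, 1 to 16 with a library left out, 3 among rows whose own name matches and 2 among members with under 40% shared sequence. The last 2 choices were made after seeing the data. Shares of all genes passing under these alternatives are not given. Scaling to equal totals moved the median of all genes to -0.13 (KD) and -0.09 (TMZ in 36N). In KD, the log2 change of Hist1h4d was -0.025 with equal totals and -0.056 with quantile normalization. With a library left out it was -0.14 to 0.37, that of Hist1h2ap -0.15 to 0.24, Hist1h2bq -0.31 to 0.22 and Hist2h3c2 -0.10 to 0.51, and the median -0.038 to 0.51; none of these passed. For 36N TMZ against 36S TMZ the median was 0.10 with a filter of 50 and -0.24 to 0.035 with a library left out, and Hist1h2ao was -0.14 to 0.30. The cause of these shifts was not tested. Untreated 36N against 36S, 36N TMZ against 36S TMZ and the interaction gave 0 calls under every alternative run. Read depth is unknown, and values under 10 limit what can be said of single members in treated cells.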
